A study of Mus musculus with 64 samples.

Results

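The diet by genotype interaction in mouse liver asks which genes responded to a high-fat diet (HFD) differently in humanized and wild-type mice. All 16 libraries entered it, 4 from each of 4 groups: wild-type (WT) mice on chow (libraries 5 to 8), WT mice on HFD (libraries 1 to 4), hMGAT2 mice on chow (libraries 13 to 16) and hMGAT2 mice on HFD (libraries 9 to 12). The hMGAT2 mice, also written HuMgat2 in the labels, are humanized animals that express human MOGAT2, and the WT mice carry the mouse gene. Diets lasted 16 weeks, and liver RNA was sequenced at the end. Age, sex, feeding state and time of collection are not given in the sources used here, nor is the promoter or cell type that drives the human gene. The labels do not say that libraries are separate animals, so p-values measure only the spread between these libraries, which may be technical. Each library had 0 to 34 counts of Xist and 934 to 2120 counts of Ddx3y, the pattern of male tissue.

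Monoacylglycerol acyltransferase 2, the product of MOGAT2, joins a fatty acid to monoacylglycerol and is best known from the intestine, where it rebuilds dietary fat for export. The liver takes up fat that arrives from the gut and from adipose tissue, stores it in droplets, oxidizes it or exports it in lipoproteins. It also makes cholesterol under the transcription factor SREBP2, and in male mice pulses of growth hormone acting through STAT5 maintain a set of male-biased liver genes.

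Levels are CPM, the counts of a gene per M counts of its library (M, mega), scaled between libraries. The interaction is the log2 change with HFD in hMGAT2 mice minus that in WT mice, so a positive value means that HFD moved the gene further up, or less far down, in hMGAT2 mice. Called means an adjusted p below 0.05 in edgeR's quasi-likelihood test over 17318 tested genes. Rose and fell are used of a diet effect called within 1 genotype. The interaction was called for 844 genes (4.87% of those tested), 452 positive (2.61%) and 392 negative (2.26%), and the median interaction over all tested genes was -0.05.

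Of the 844 genes, 93 had diet effects of opposite sign that were called in both genotypes, 315 had a diet effect called in WT alone and 368 in hMGAT2 alone. A further 26 had called effects of the same sign and different size, and 42 had no diet effect called in either genotype. The diet itself was called for 2617 genes in WT (15.1%) and 2418 in hMGAT2 (14%), and 747 genes were in both sets, which is 28.5% of the WT calls and 30.9% of the hMGAT2 calls. A call in 1 genotype is no test of a difference. Of 3541 genes with a diet effect called in 1 genotype alone, the interaction was called for 683 (19.3%). Among the 654 genes called in both with the same sign it was called for 26 (3.98%), and among the 93 of opposite sign for all 93 (100%). The interaction is the difference between the diet effects, so with opposite signs it is larger than either, and the 100% follows largely from that. The 2 diet effects share no libraries, and across the 17318 genes their Pearson r was 0.375 and Spearman's rho 0.347, given as a description because genes are not replicates.

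**Figure D1:**
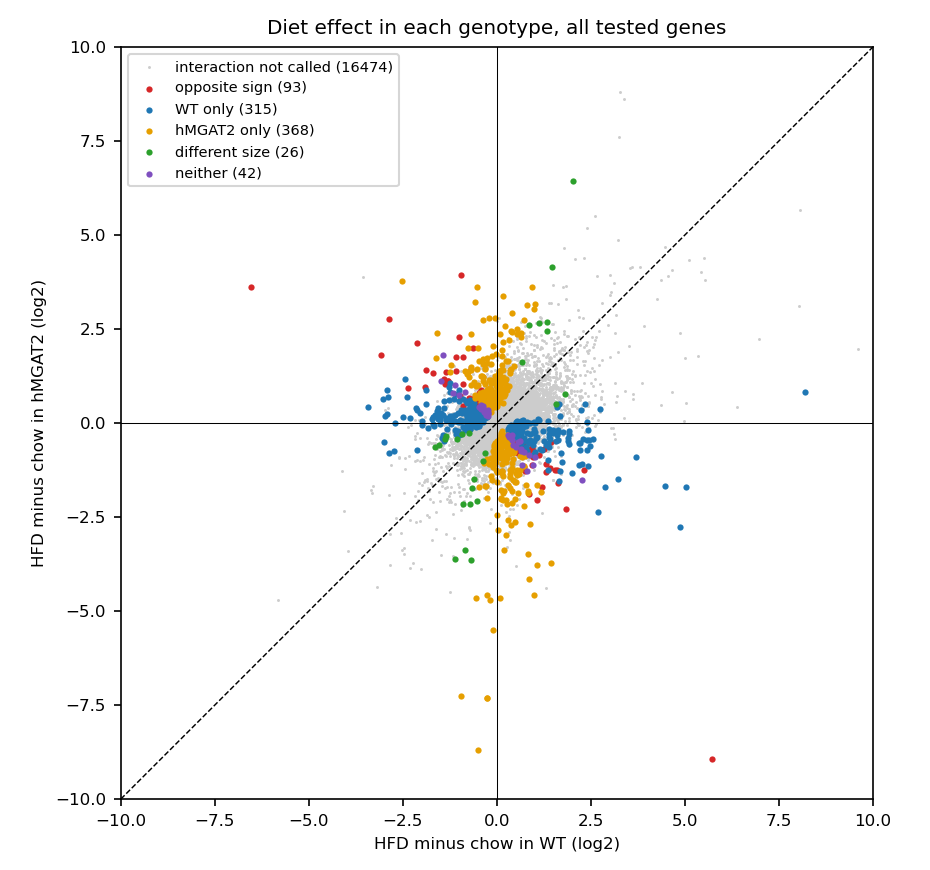
Each point is a tested gene, with the log2 change from chow to HFD in WT mice on the x axis and in hMGAT2 mice on the y axis. Colours mark the 844 interaction genes by class, grey points the others, the dashed line equal effects, and 2 genes lie outside the drawn range. Genes called in WT alone spread along the x axis, those called in hMGAT2 alone along the y axis, and the 93 of opposite sign lie in the upper left and lower right.

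The genotypes were also compared within each diet. Between them, 2558 of all tested genes were called on HFD (14.8%) and 88 on chow (0.508%). For the interaction genes the genotypes differed on HFD alone in 699, on chow alone in 28, on both diets in 15 and on neither in 102. These comparisons share libraries with the interaction and describe it only.

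Total counts ranged from 12.4 to 25.8 M per library. WT HFD library 4 stood apart, with the fewest counts, 0.85% of its counts in Alb against 3.259% to 6.018% elsewhere, and higher immune cell markers. Without it the interaction was called for 1129 genes, and 798 of the 844 were among them. The smallest count, 529, came without WT chow library 5, and the counts without hMGAT2 HFD library 10 and hMGAT2 chow library 15 were 551 and 550. Of the 844 genes, 445 (52.7%) kept the call whichever library was left out. All 93 genes of opposite sign were among these, with 159 of the WT class, 178 of the hMGAT2 class, 15 of different size and 0 of those with no diet call. For opposite signs this follows largely from how the class is defined, since the interaction is then larger than either called effect. Class membership was less stable, and 285 genes kept both the call and the class in all 16 such fits. Of the 122 called genes chosen for naming 51 did so. The interaction was called for 629 of the 844 genes in all of 5 other tools and filters. Of the rest, 212 lost it in at least 1 of these, and a further 3 had no adjusted p in at least 1. A filter of at least 1 CPM was also run and is not among the 5. Hepatocyte markers were abundant in every group, with a summed level of 44000 to 102100 CPM, and library 4 was the lowest.

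Among genes whose diet effects had opposite signs and a positive interaction, those with the smallest p were Slc22a27, Cyp2c38, Pcp4l1, Slc22a29 and Spon2. Slc22a27 (ENSMUSG00000067656, GRCm39 chromosome 19, 7841753 to 7943392) belongs to the organic anion transporter family. It measured 2.46, 1.25, 1.9 and 1.73 CPM in WT on chow and 1.03, 0.501, 1.3 and 0.953 CPM in WT on HFD. In hMGAT2 mice it measured 1.29, 1.18, 1.34 and 1.36 CPM on chow and 22, 19.7, 18.1 and 19.6 CPM on HFD. The hMGAT2 HFD libraries lay far above the other 12, while the WT groups overlapped slightly. It fell 1.94-fold in WT and rose 15.3-fold in hMGAT2 (interaction log2 4.90 ± 0.32 SE, adjusted p = 4.79e-07), and without WT chow library 5 its WT decrease was not called. Cyp2c38, a cytochrome P450, had an interaction of 2.63 and Pcp4l1, a small protein related to a calmodulin regulator, of 3.30. Spon2, a secreted matrix protein, had 2.82 and Slc22a29, a relative of Slc22a27, 3.29. The class of Cyp2c38 changed without library 2, 5 or 8 and that of Slc22a29 without library 5, and both interactions were called in all 16 fits. Reads of close relatives such as these transporters and the Cyp2c genes may be split between copies, so single members are uncertain.

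In the other direction stood Pim1, Adam11, Cyp2c70, Slc43a1 and Pxmp2, which rose with HFD in WT and fell in hMGAT2. Pim1 (ENSMUSG00000024014, chromosome 17, 29709727 to 29715086) encodes a serine/threonine kinase. Its levels were 15.7, 21, 18.2 and 17 CPM in WT on chow and 33.3, 32.5, 33.3 and 37.4 CPM in WT on HFD. In hMGAT2 they were 37.9, 36.1, 48.3 and 35.4 CPM on chow and 19.6, 17.1, 22.2 and 13.9 CPM on HFD. The groups of each genotype did not overlap, and the order of the diets was exchanged between the genotypes. It rose 1.90-fold in WT and fell 2.17-fold in hMGAT2 (interaction log2 -2.04 ± 0.19 SE, adjusted p = 5.7e-05), and it was one of the few genes that differed between genotypes on chow as well (log2 1.13, adjusted p = 0.000207).

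Cyp2c70 (ENSMUSG00000060613, chromosome 19, 40141797 to 40175777) encodes the mouse enzyme that makes muricholic bile acids. It measured 155, 213, 158 and 159.7 CPM in WT on chow and 443, 335, 247 and 539.6 CPM in WT on HFD. The hMGAT2 values were 263, 185, 232 and 297 CPM on chow and 100.1, 60.4, 73.6 and 68.8 CPM on HFD. No HFD library overlapped the chow libraries of its genotype. Cyp2c70 rose 2.28-fold in WT and fell 3.22-fold in hMGAT2 (interaction log2 -2.88 ± 0.31 SE, adjusted p = 8.35e-05). Adam11, a membrane protein of the ADAM family, had an interaction of -3.24, and the amino acid transporter gene Slc43a1 one of -3.58. Pxmp2, a channel of the peroxisome membrane, had -1.07. These 5 genes kept the call and the class in all 16 fits with 1 library left out.

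Genes whose diet effect was called in WT alone, with a positive interaction, included Ugdh, Raet1e, Gclc and Asb13. These fell with HFD in WT. Ugdh (ENSMUSG00000029201, chromosome 5, 65570564 to 65593292) encodes the enzyme that makes UDP-glucuronic acid, the donor for glucuronidation. It stood at 248, 249, 238 and 258 CPM in WT on chow against 106, 80.6, 92.5 and 69.6 CPM on HFD. In hMGAT2 it stood at 161, 202, 167 and 202 CPM on chow against 183, 220, 221 and 246 CPM on HFD. The WT HFD libraries were lowest of all, and the 2 hMGAT2 groups overlapped. Ugdh fell 2.85-fold in WT and was 1.19-fold higher on HFD in hMGAT2, which was not called (adjusted p = 0.219). Its interaction was 1.76 ± 0.18 SE (adjusted p = 8.35e-05). Raet1e, a ligand of an activating receptor on killer cells, fell 7.43-fold (interaction 3.59), with a changed class without hMGAT2 HFD library 12.

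Gpcpd1, Cnbd2, Cep85, Scara5 and Por rose in WT alone. Gpcpd1 (ENSMUSG00000027346, chromosome 2, 132371002 to 132420168), a phosphodiesterase that breaks down glycerophosphocholine, measured 37.1, 45.4, 43.8 and 40 CPM in WT on chow and 230.1, 227, 294 and 227 CPM on HFD. Its hMGAT2 values were 72.3, 36.3, 69.6 and 55.6 CPM on chow and 30.5, 44.1, 38.2 and 62.5 CPM on HFD. The WT HFD libraries stood above the other 12 and the hMGAT2 groups overlapped. It rose 5.88-fold in WT (interaction log2 -2.97 ± 0.30 SE, adjusted p = 6.97e-05), and without hMGAT2 chow library 14 its class changed. Por, which passes electrons to the microsomal cytochromes P450, rose 2.59-fold in WT and was at log2 -0.16 in hMGAT2 (interaction -1.53). Scara5, a ferritin receptor, had an interaction of -6.72, and its class changed without WT HFD library 4 or WT chow library 6.

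In hMGAT2 alone Fam126a, Tkt, Pcdh18, Pgd and Cd36 rose. Cd36 (ENSMUSG00000002944, chromosome 5, 17986688 to 18093745), a fatty acid transporter of the cell surface, had 51.3, 43.9, 43.3 and 44 CPM in hMGAT2 on chow and 218, 261, 277 and 273 CPM on HFD. In WT it had 53.2, 41, 54.8 and 78.6 CPM on chow and 95.6, 74.9, 111 and 50 CPM on HFD. The hMGAT2 HFD libraries were the highest, and the WT groups overlapped. Cd36 rose 5.64-fold in hMGAT2 against 1.46-fold higher in WT, not called (interaction log2 1.95 ± 0.29 SE, adjusted p = 0.00101). Leaving out WT HFD library 4, the WT change was called (log2 0.72, adjusted p = 0.00837), so the class of Cd36 changed while its interaction of 1.78 was still called. Its class also changed without WT chow library 8. Tkt and Pgd, enzymes of the pentose phosphate pathway that yields NADPH, rose 2.07-fold and 2.68-fold in hMGAT2, with interactions of 1.35 and 1.25. The class of Tkt changed without WT HFD library 3.

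Adgrf1, C8b, Hsd3b5, C6 and Pla1a fell in hMGAT2 alone. C8b (ENSMUSG00000029656, chromosome 4, 104623514 to 104661745) encodes a chain of complement component C8. It measured 270.3, 156, 239 and 245 CPM in hMGAT2 on chow and 55.5, 46.5, 40.1 and 23.9 CPM on HFD. WT libraries held 189.7, 231, 193 and 213 CPM on chow and 247, 215, 165 and 204 CPM on HFD. Only the hMGAT2 HFD libraries were low, and they lay below all 12 others. C8b fell 5.48-fold in hMGAT2 and stood at log2 0.01 in WT (interaction -2.46 ± 0.30 SE, adjusted p = 0.000195). Adgrf1, an adhesion receptor of the G protein-coupled class, had 7 counts in all over the hMGAT2 HFD libraries and 1089 over the hMGAT2 chow libraries (interaction -6.29), and its class changed without WT chow library 8.

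The 26 genes with same-sign effects of different size included 17 with the larger effect in hMGAT2 and 9 with the larger effect in WT. Lratd2 (ENSMUSG00000072568, chromosome 15, 60690843 to 60725627), which encodes a protein with an LRAT-like domain, had 3.73, 3.7, 3.99 and 3.91 CPM in WT on chow and 6.4, 5.01, 5.96 and 7.15 CPM on HFD. In hMGAT2 it had 4.2, 4.18, 3.01 and 3.75 CPM on chow and 11.6, 12.3, 11.6 and 10.8 CPM on HFD. Both genotypes separated by diet, and the hMGAT2 HFD libraries were the highest. It rose 1.59-fold in WT and 3.06-fold in hMGAT2 (interaction log2 0.94 ± 0.18 SE, adjusted p = 0.00677). Anxa2, a membrane-binding annexin, rose 2.50-fold and 6.49-fold (interaction 1.38). Mreg, Irs1 and Myrf fell more in WT, with interactions of 1.01, 0.97 and 0.61. Irs1, an adaptor of the insulin receptor, fell 2.62-fold in WT and 1.34-fold in hMGAT2.

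Cdh1 (ENSMUSG00000000303, chromosome 8, 107329983 to 107396878), the epithelial cadherin, measured 51.8, 70.1, 57.8 and 48.6 CPM in WT on chow and 30.3, 49.9, 41 and 20 CPM on HFD. Its hMGAT2 levels were 48.7, 52.8, 37 and 52.6 CPM on chow and 3.66, 3.72, 3.36 and 4.66 CPM on HFD. The hMGAT2 HFD libraries lay far below the rest, and in WT the groups overlapped. Cdh1 fell 1.61-fold in WT and 12.4-fold in hMGAT2 (interaction log2 -2.95 ± 0.31 SE, adjusted p = 8.35e-05). Cyp1a2, a P450 of the pericentral liver, fell 1.79-fold and 10.4-fold (interaction -2.54), and the chemokine gene Ccl9 fell 1.44-fold and 4.22-fold (-1.55). Cyp2c54, another P450, fell 2.16-fold and 12.2-fold (-2.50). Hmgn2, a nucleosome-binding protein, rose 2.96-fold in WT and 1.42-fold in hMGAT2 (-1.06). The class of 7 of the 10 genes named here changed in 1 or more fits without 1 library, while Lratd2, Anxa2 and Hmgn2 kept theirs. Without WT HFD library 4 the WT decrease of Cdh1 (log2 -0.50, adjusted p = 0.0511) and of Cyp1a2 (log2 -0.62, adjusted p = 0.0694) was not called, and both interactions were.

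**Figure D2:**
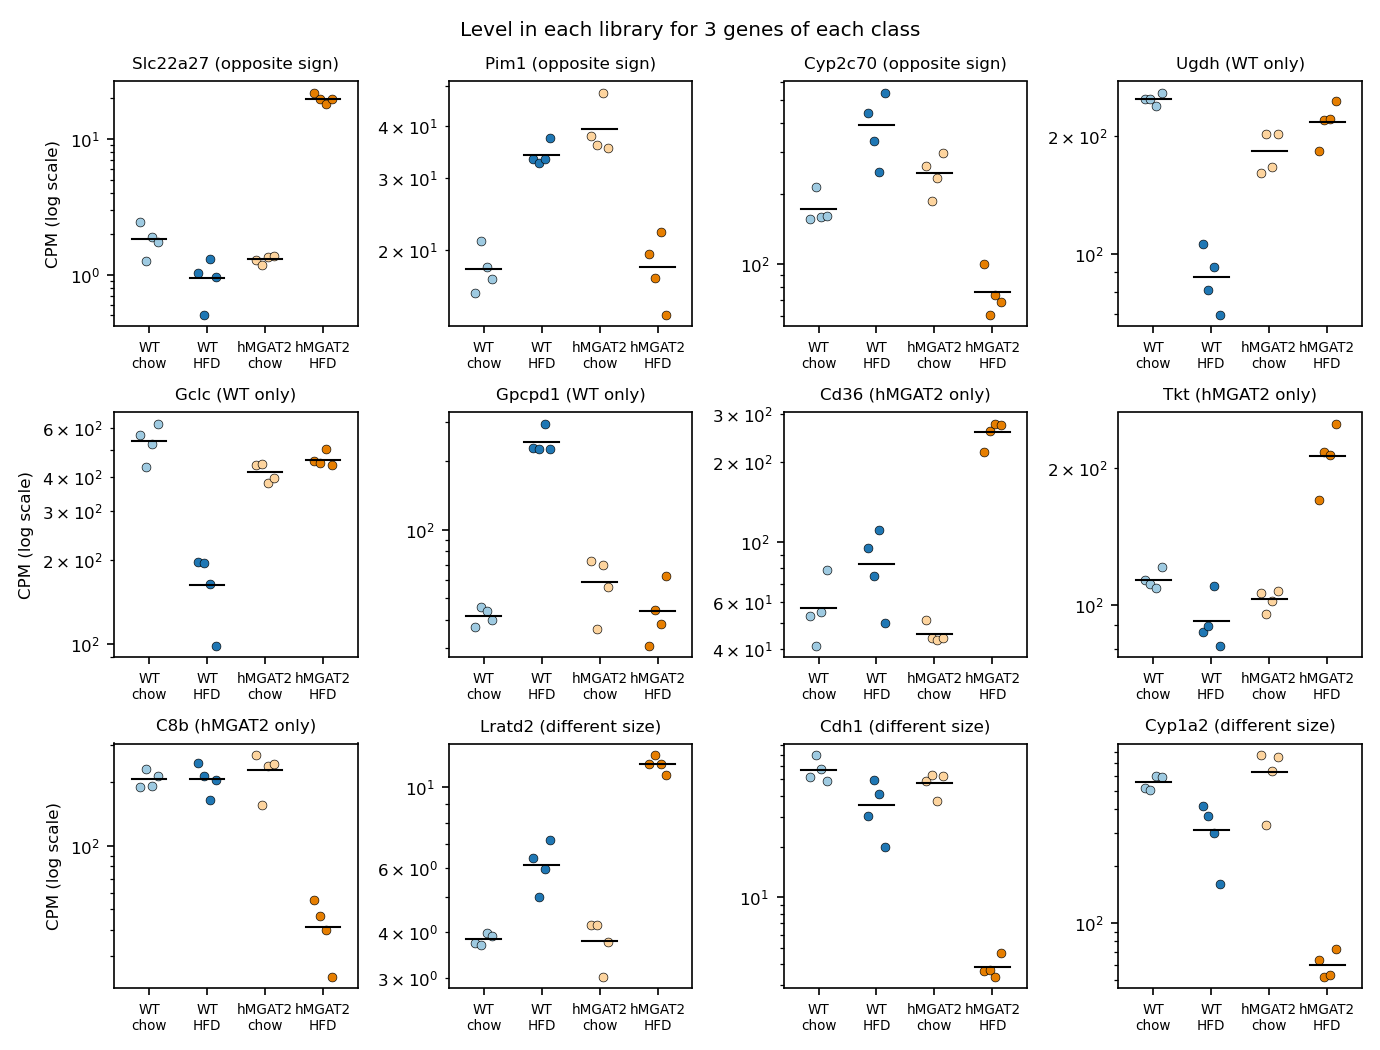
Level in CPM, on a log scale, in each of the 16 libraries, with points for libraries and a line for the mean of each group of 4. Drawn are 3 genes each of opposite sign, WT alone, hMGAT2 alone and different size, and none without a diet call. In Cd36, C8b, Cdh1 and Cyp1a2 the hMGAT2 HFD libraries stand apart, in Ugdh, Gclc and Gpcpd1 the WT HFD libraries do, and in Pim1 and Cyp2c70 the diets change order between genotypes.

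Gene lists were described by counts of called members against the 2.61% called positive and 2.26% called negative of all tested genes, with no test of the lists. Cholesterol synthesis had 15 of 25 members called, all positive, with a median interaction of 1.13 against -0.05 for all genes. In WT 18 members fell with HFD and 0 rose (median log2 -0.83). In hMGAT2 4 rose and 1 fell (median 0.31). The count of 15 was 9 without hMGAT2 HFD library 10. In most called members hMGAT2 HFD libraries 9 and 10 stood above libraries 11 and 12. Idi1 had 327 and 303 CPM against 105 and 88.6 CPM, and Cyp51 269 and 252 CPM against 89.5 and 83.2 CPM. On chow the hMGAT2 libraries had 131, 133, 213 and 223 CPM of Idi1 and 143, 113, 192 and 185 CPM of Cyp51. Libraries 11 and 12 thus lay below the hMGAT2 chow libraries for Idi1 and Cyp51, while for Hmgcs1 they were within the chow range. The hMGAT2 median of 0.31 averages over this split.

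Hmgcs1, which makes the HMG-CoA that feeds the pathway (ENSMUSG00000093930, chromosome 13, 120151982 to 120169796), measured 316, 306, 228 and 299 CPM in WT on chow and 90.7, 86, 87.4 and 41.4 CPM on HFD. In hMGAT2 it had 265, 230.2, 426 and 374 CPM on chow and 839, 893, 404 and 381 CPM on HFD. The WT diets separated fully. The hMGAT2 groups overlapped, because 2 of the HFD libraries (9 and 10) were high and 2 (11 and 12) were within the chow range. It fell 3.75-fold in WT and rose 1.94-fold in hMGAT2 (interaction log2 2.87 ± 0.42 SE, adjusted p = 0.00093). The hMGAT2 increase was near the threshold (adjusted p = 0.0389), and the class was kept in 9 of 16 fits without 1 library.

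Sqle, the squalene epoxidase (ENSMUSG00000022351, chromosome 15, 59186926 to 59203041), had 43.9, 56.9, 31.6 and 41.1 CPM in WT on chow and 4.25, 3.88, 6.6 and 6.67 CPM on HFD. Its hMGAT2 levels were 25.9, 25.5, 51.9 and 59.3 CPM on chow and 103, 103, 27 and 19.4 CPM on HFD. Again libraries 9 and 10 were above the chow libraries, and 11 and 12 were not. Sqle fell 8.17-fold in WT (interaction 3.66 ± 0.66 SE, adjusted p = 0.00394), and Idi1, an enzyme of the isoprenoid steps, fell 7.52-fold (interaction 3.15). Cyp51, Nsdhl, Msmo1 and Fdft1, later enzymes of the pathway, had interactions of 2.44, 2.31, 1.80 and 1.57. Those of Mvd and Fdps, in the isoprenoid steps, were 2.31 and 2.40. Pmvk, Lss and Srebf2, which encodes SREBP2, had values of 1.38, 1.32 and 0.78. They kept the call in 5, 8 and 4 of the 16 fits without 1 library, and Msmo1 and Mvd lost it without library 10. A second test, limma voom with library weights, did not call Pmvk (adjusted p = 0.101) or Lss (adjusted p = 0.0649). Mvd kept its class in 5 of 16 fits and Fdps in 10. Hsd17b7 and Acat2 had 1.40 and 0.88 and kept the call in all 16 fits, with the class of Hsd17b7 kept in 13.

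**Figure D3:**
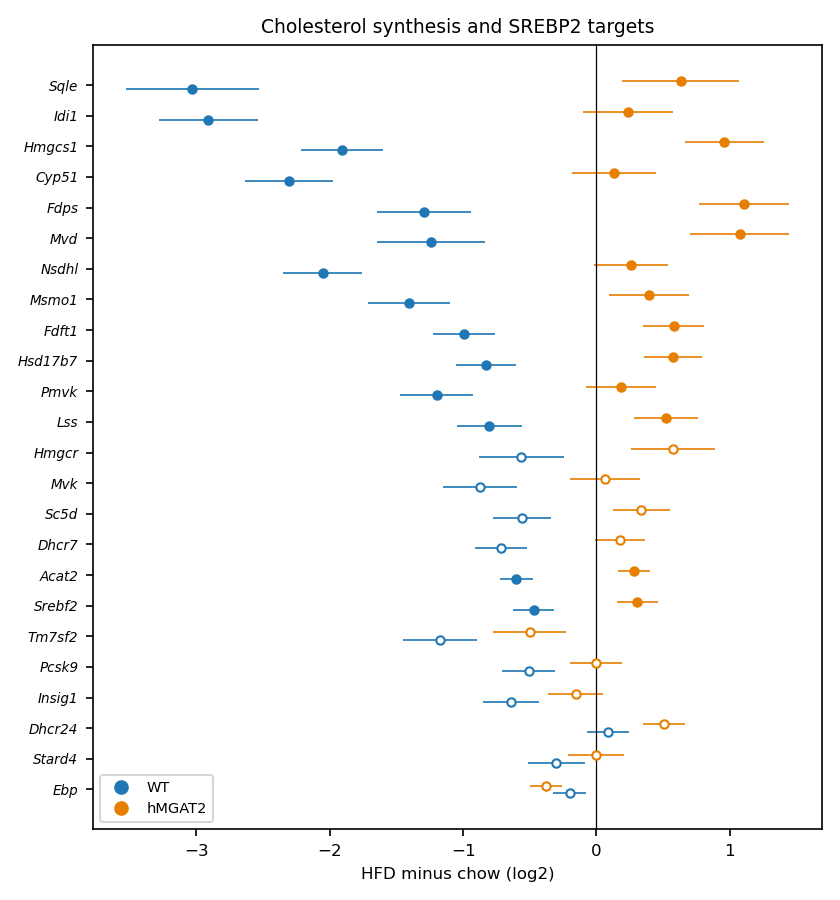
Log2 change with HFD in WT (blue) and hMGAT2 (orange) for 24 tested cholesterol genes, ordered by the interaction, with bars of 1 SE and filled points where the interaction was called. The 14 called genes drawn all lie left of zero in WT.

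The promoter of Hmgcs1 is shown because Hmgcs1 was one of the 2 cholesterol genes of opposite sign and its upstream bases hold a match to a sterol regulatory element. The motif searched was TCACNCCAC on both strands, in RefSeq promoters of assembly GRCm38.p6 that run from 250 bases before to 50 after the start. It was present in 168 of 11153 tested genes with a promoter entry (1.51%). Of the 15 called cholesterol genes, 11 had an entry, and Hmgcs1 was the only 1 of these 11 with a match. Fewer than 80% had an entry, so a share over the list is void. The stretch below lies on the plus strand at chr13:119690159-119690278 of GRCm38.p6, upstream of the start, with the match in capitals.
Hmgcs1: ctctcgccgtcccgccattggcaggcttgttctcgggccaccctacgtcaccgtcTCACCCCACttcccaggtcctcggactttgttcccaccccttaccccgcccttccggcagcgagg
A match describes letters only, and no binding was measured.

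Male-biased liver genes had 10 of 25 members called, all negative, with a median interaction of -1.60. In hMGAT2 19 members fell with HFD and 0 rose, and in WT 5 fell and 1 rose. The count of called members was 16 without WT HFD library 4, 14 without hMGAT2 chow library 14, and 9 or 10 without any other. Hsd3b5, a steroid dehydrogenase (ENSMUSG00000038092, chromosome 3, 98525950 to 98537568), measured 175, 50.2, 157 and 195 CPM in hMGAT2 on chow and 0.407, 0.531, 0.213 and 0.224 CPM on HFD. In WT it measured 132, 166, 141 and 106 CPM on chow and 138, 135, 101 and 6.59 CPM on HFD. All hMGAT2 HFD libraries were near zero, and library 4 was low among the WT HFD libraries. The hMGAT2 decrease was 412-fold (interaction log2 -8.18 ± 1.01 SE, adjusted p = 0.000217), and the interaction was -8.56 without library 4.

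Egfr, the receptor for epidermal growth factor (ENSMUSG00000020122, chromosome 11, 16702203 to 16868158), measured 1577, 756, 1329.5 and 1206 CPM in hMGAT2 on chow and 221, 234, 190.5 and 106 CPM on HFD. WT libraries held 585, 1223, 499 and 567 CPM on chow and 1768, 782, 757 and 1992 CPM on HFD. The hMGAT2 HFD libraries were the lowest, and the WT groups overlapped. Egfr fell 6.48-fold in hMGAT2 (interaction -3.58 ± 0.53 SE, adjusted p = 0.000925), and its class changed without WT chow library 6. Slco1a1, an organic anion transporter, fell 25.1-fold in hMGAT2 (interaction -4.09). Nudt7, a peroxisomal CoA hydrolase, had -1.93 and Serpina1e, a protease inhibitor with close copies, -1.42, with the class kept in 14 and 6 of 16 fits. Cyp4a12b, which has a near-identical copy in Cyp4a12a, had -3.14 and kept the call in 4 of 16 fits. Without WT HFD library 4 the interaction of Cyp4a12b was -3.52 (adjusted p = 3.9e-05), and its WT increase was then called (log2 0.88, adjusted p = 0.0362). Moxd1 had 1 count over the 4 hMGAT2 HFD libraries against 677 over the hMGAT2 chow libraries, nearly all in library 16, so no fold is given.

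Of 14 tested female-biased genes, Cyp2b9, Hao2 and Acot3 were called, all positive, while the median interaction of the list was -0.34 and 6 of its 14 estimates were positive. Cyp2b9 (ENSMUSG00000040660, chromosome 7, 25872836 to 25910086), a cytochrome P450, had 74.6, 6.19, 59.8 and 10.8 CPM in hMGAT2 on chow and 375, 419, 567 and 484 CPM on HFD. In WT it had 3.31, 0.0463, 22.4 and 12.8 CPM on chow and 0.0489, 0, 0.243 and 0.0794 CPM on HFD. The 2 genotypes moved apart on HFD, and the WT groups overlapped (interaction log2 10.16 ± 1.66 SE, adjusted p = 0.00191), but voom with library weights did not call Cyp2b9 (adjusted p = 0.109). Leaving out WT HFD library 4 added 4 female-biased genes called negative. In the growth hormone signalling list Igf1, Socs3 and Bcl6 were called negative and Stat5a positive. Bcl6, a repressor that acts against STAT5, fell 7.13-fold in hMGAT2 (interaction -2.87). Igf1, a hormone made by the liver under growth hormone, had -0.89 and lost the call without WT chow library 5 or hMGAT2 HFD library 11. Stat5a had 0.58 and kept the call in 2 of 16 fits. Fewer cells of a type and less RNA per cell cannot be told apart in whole liver.

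Complement and coagulation had 7 of 26 members called, all negative and all in the hMGAT2 class, with a median of -0.49. In hMGAT2 8 members fell and 0 rose, and in WT 0 fell and 1 rose. The count was 6 or 7 whichever library was left out. The called genes form much of the membrane attack complex, C6, C8a, C8b and C9, with the lectin pathway protease Masp1 and the clotting factors F7 and F11. C6 fell 3.62-fold in hMGAT2 (interaction -2.42), C9 2.59-fold (-1.91) and C8a 3.43-fold (-1.88). F11 and F7 had -1.43 and -1.06, and Masp1 (-0.55) kept the call in 5 of 16 fits. Masp1 also lost it with no filter on low counts and without mitochondrial, ribosomal RNA and hemoglobin genes. The class of C6 changed without library 12 and that of C9 without library 3. C6, C8a and C8b also belong to the male-biased list, so the 2 lists are not separate evidence.

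**Figure D4:**
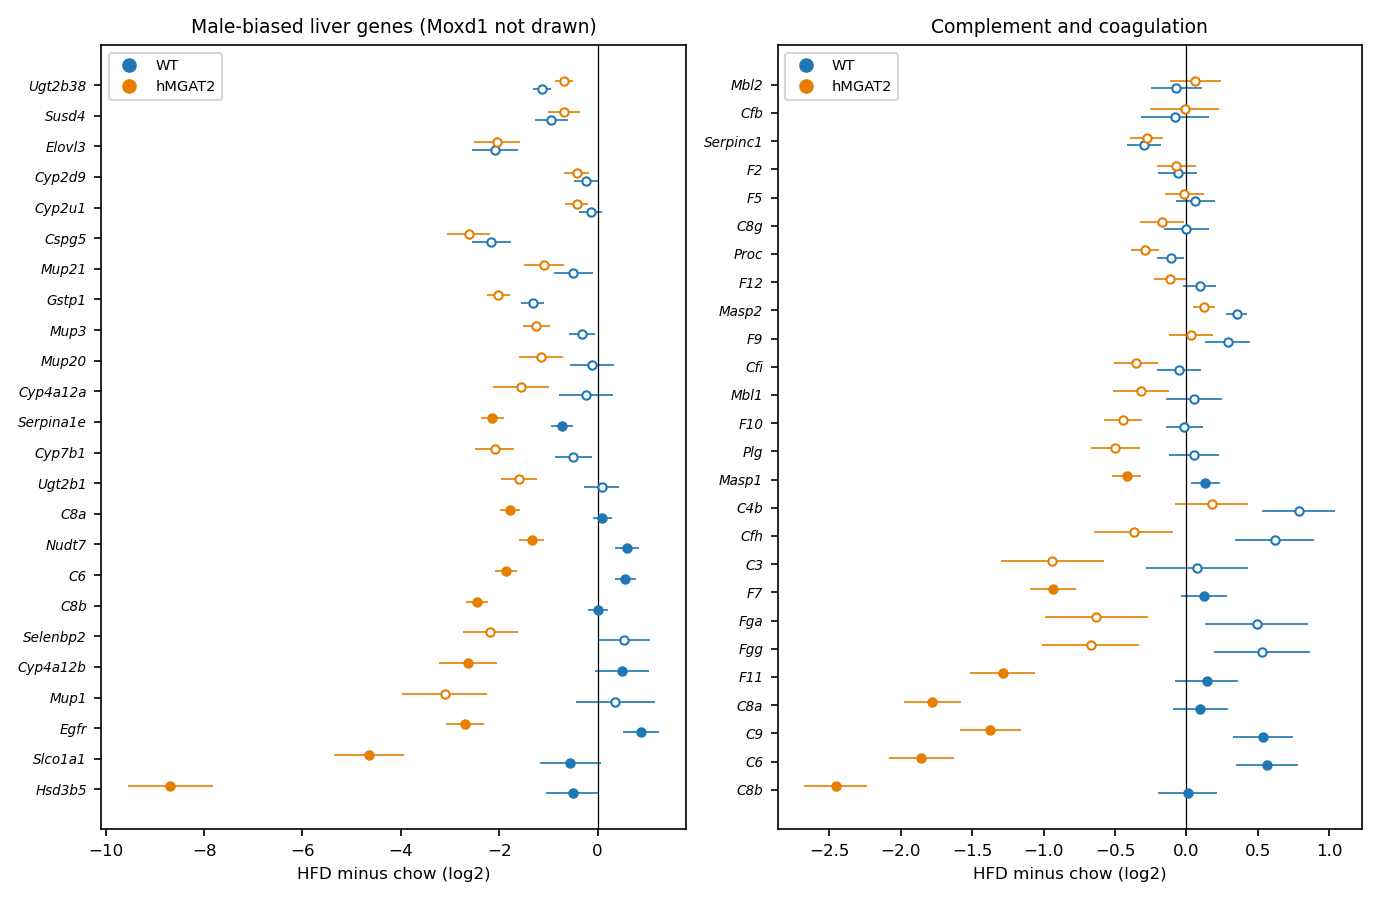
Log2 change with HFD in WT (blue) and hMGAT2 (orange) for tested male-biased genes (left, without Moxd1) and complement and coagulation genes (right), with bars of 1 SE and filled points where the interaction was called. In the called genes the orange points lie left of the blue ones, by 8.18 in Hsd3b5 and by 0.55 in Masp1.

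Promoters of male-biased genes were searched for TTCNNNGAA, the letters that STAT5 binds, on both strands of the same RefSeq windows. Of 11153 tested genes with an entry 942 held it (8.45%), as did 2 of the 9 called male-biased genes with an entry, C8a and Moxd1. The C8a stretch is shown since C8a was called in both lists. It lies on the minus strand at chr4:104876529-104876648 of GRCm38.p6, upstream of the start, with the match in capitals.
C8a: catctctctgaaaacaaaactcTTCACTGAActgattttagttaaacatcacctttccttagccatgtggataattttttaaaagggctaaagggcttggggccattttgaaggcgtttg

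Fatty acid oxidation and PPAR alpha targets had 6 of 30 members called, all positive, with a median of 0.62. In hMGAT2 15 members rose and 0 fell, and in WT 3 rose and 2 fell. The count was 14 without WT HFD library 4. Pdk4, a kinase that switches off glucose oxidation (ENSMUSG00000019577, chromosome 6, 5483351 to 5496309), had 11.2, 11.2, 4.44 and 6.67 CPM in WT on chow and 3.76, 2.55, 3.57 and 2.7 CPM on HFD. In hMGAT2 it had 7.62, 9.45, 5.21 and 6.51 CPM on chow and 16.1, 17.1, 15.6 and 15.9 CPM on HFD. Both genotypes separated by diet, in opposite directions. Pdk4 fell 2.64-fold in WT and rose 2.24-fold in hMGAT2 (interaction 2.56 ± 0.35 SE, adjusted p = 0.000527).

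Cyp4a14, a fatty acid hydroxylase, fell 7.33-fold in WT and rose 6.76-fold in hMGAT2 (interaction 5.63), with both diet effects near the threshold (adjusted p = 0.037 and 0.0445) and the class kept in 5 of 16 fits. Fgf21, a hormone released by the liver, rose 6.63-fold in hMGAT2 (interaction 3.10 ± 0.62 SE, adjusted p = 0.00789) and was at log2 -0.37 in WT. Acot3 and Acot4, acyl-CoA thioesterases with close copies, had interactions of 2.85 and 1.26, and Pex11a, which drives peroxisome division, 1.29. Acot4 kept the call in 6 of 16 fits.

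For lipid droplets and fatty acid uptake 3 of 25 members were called, all positive (Cd36, Plin3 and Plin4), with a median of 0.27. Plin4, a droplet coat protein (ENSMUSG00000002831, chromosome 17, 56407591 to 56416803), measured 6.39, 23.2, 12.5 and 12.9 CPM in hMGAT2 on chow and 103, 105, 159.7 and 206 CPM on HFD. WT libraries held 49.7, 36.6, 28 and 37 CPM on chow and 45, 66.1, 35.4 and 21.7 CPM on HFD. The hMGAT2 groups did not overlap, and the WT groups did. Plin4 rose 10.3-fold in hMGAT2 (interaction 3.21 ± 0.50 SE, adjusted p = 0.00143), and Plin3 rose 1.70-fold (interaction 0.69). In this list 16 members rose in hMGAT2 and 9 in WT. The count of 3 was 5 without hMGAT2 chow library 16.

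Of 18 genes of de novo lipogenesis 1 was called, Me1 (malic enzyme, interaction 2.12), while 11 rose in hMGAT2 and 8 in WT. Me1 lost the call without libraries 2, 8, 10 or 15, and 6 members were called without WT HFD library 3. In glycerolipid synthesis Gpam, which starts glycerolipid assembly, had 1.26 and kept the call in 5 of 16 fits, and the count of called members was 3 without WT HFD library 4 and 2 without hMGAT2 chow library 14. Mogat1, which encodes a related monoacylglycerol acyltransferase, had an interaction of 2.19 ± 0.94 SE and was not called (adjusted p = 0.22). Mogat1 rose 12.8-fold in hMGAT2 (adjusted p = 0.000437) and was 2.8-fold higher on HFD in WT, not called (adjusted p = 0.149). Without WT HFD library 4 the WT increase was called (log2 1.79, adjusted p = 0.0357). The Mogat1 interaction was still not called in that fit (1.89, adjusted p = 0.171). Its counts were low, with 20 in all over the WT chow libraries, 57 over the WT HFD libraries and 26 over the hMGAT2 chow libraries. Dgat1 and Dgat2, which turn diacylglycerol into triglyceride, had interactions of 0.21 and -0.25 that were not called (adjusted p = 0.682 and 0.502). Mouse Mogat2 was too low to be tested, at 0.486 CPM or less in every library. Reads were aligned to the mouse assembly, so these counts give no level for the human MOGAT2 transcript.

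NRF2 targets and glutathione had 5 of 18 members called, all positive, with a median of 0.80. In WT 12 members fell and 0 rose, and in hMGAT2 1 rose and 3 fell. Gclc, the catalytic subunit of the first enzyme of glutathione synthesis (ENSMUSG00000032350, chromosome 9, 77661817 to 77701767), measured 564, 432, 526 and 620 CPM in WT on chow and 197, 196, 164 and 98.4 CPM on HFD. In hMGAT2 it had 439, 444, 381 and 394 CPM on chow and 454, 448, 501 and 439 CPM on HFD. The WT HFD libraries were the lowest, and the hMGAT2 groups overlapped. Gclc fell 3.27-fold in WT (interaction 1.86 ± 0.25 SE, adjusted p = 0.000406). Ephx1, an epoxide hydrolase, fell 2.56-fold in WT (1.49), and Srxn1, which repairs peroxiredoxins, rose 2.13-fold in hMGAT2 (1.19). The glutathione transferases Gstm4 and Gsta3 had 1.07 and 0.66 and kept the call in 6 and 3 of 16 fits, and Gsta3 was called in 2 of the 5 other settings. The list count was 3 without several single libraries and 8 without hMGAT2 chow library 14.

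Among 22 genes of bile acid and sterol transport Abcg5, Abcg8, Cyp27a1 and Cyp2c70 were called negative and Abcc4 positive, and without WT HFD library 4 the positive count was 4. Abcg5 and Abcg8 form the transporter that exports sterols into bile. Abcg5 (ENSMUSG00000040505, chromosome 17, 84965662 to 84990439) stood at 49.5, 45.5, 55.9 and 44.3 CPM in WT on chow and 198, 185, 174 and 77.5 CPM on HFD. Its hMGAT2 levels were 54.7, 111, 49.4 and 49.8 CPM on chow and 34.8, 36.4, 36.6 and 45.2 CPM on HFD. WT HFD libraries lay above all WT chow libraries, and the hMGAT2 HFD libraries lay below all hMGAT2 chow libraries. Abcg5 rose 3.25-fold in WT and was 1.73-fold lower in hMGAT2, not called (adjusted p = 0.06), with an interaction of -2.49 ± 0.38 SE (adjusted p = 0.00126). Without library 4 its class changed. Abcg8 had -2.01. Cyp27a1, of bile acid synthesis, had -0.79 and lost the call without libraries 6, 7, 8, 10 or 11, and the efflux pump gene Abcc4 had 1.88. Xenobiotic metabolism had 4 of 22 called negative (Cyp1a2, Cyp2c54, Cyp3a13 and Por) and 2 positive (Cyp2c38 and Aldh1a1), and 7 negative without library 4. Cyp3a13, another P450 (-1.53), lost the call without library 1, 6, 10 or 13 and with voom (adjusted p = 0.0515), and kept its class in 1 of 16 fits. Aldh1a1 had no diet effect called in either genotype and kept the call in 3 of 16 fits.

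Urea cycle and other periportal genes had 3 of 15 members called, all negative, and pericentral genes 4 of 14, all negative. The periportal count was 1 without any of libraries 1, 5, 6, 7, 10, 11 and 14, and the pericentral count 3 to 6. Cps1, the first enzyme of the urea cycle (ENSMUSG00000025991, chromosome 1, 67162185 to 67270418), measured 4793, 5114, 4982 and 4231 CPM in hMGAT2 on chow and 1681, 1536, 1956 and 2070.4 CPM on HFD. WT levels were 3793, 4334, 3887 and 3765 CPM on chow and 4596, 3023, 3434 and 3108 CPM on HFD. The hMGAT2 HFD libraries were the lowest, and the WT groups overlapped. Cps1 fell 2.64-fold in hMGAT2 (interaction -1.24 ± 0.24 SE, adjusted p = 0.00657). Arg1 and Pck1 had -0.84 and -1.24 and kept the call in 6 and 5 of 16 fits. Of the pericentral genes, Oat, an ornithine aminotransferase, rose 1.54-fold in WT and fell 1.65-fold in hMGAT2 (-1.35). Slc1a2, a glutamate transporter, rose 1.52-fold in WT and fell 1.35-fold in hMGAT2 (-1.04), with the class kept in 8 of 16 fits.

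Inflammation and acute phase had 3 of 22 members called, all negative (Saa1, Socs3 and Cxcl1), with a median of -1.77. Here 13 members rose in WT and 1 in hMGAT2. Saa1, an acute phase protein with close copies (ENSMUSG00000074115, chromosome 7, 46389921 to 46392404), measured 123, 28, 26.9 and 7574 CPM in WT on HFD and 5.67, 5.55, 7.93 and 7.32 CPM in WT on chow. In hMGAT2 it had 20, 9.87, 23 and 17.7 CPM on chow and 18.5, 27.2, 32.8 and 45.1 CPM on HFD. The WT HFD mean rests on library 4, although the other 3 WT HFD libraries also lay above the chow libraries. The interaction was -7.38 with all libraries and -2.35 without library 4 (adjusted p = 0.027 and 0.0279), and Saa1 kept the call in 8 of 16 fits. Voom did not call Saa1 (adjusted p = 0.274), and DESeq2 gave it no adjusted p. For Socs3, a brake on cytokine signalling, it was -4.69 and -2.72, and for the chemokine gene Cxcl1 -5.06 and -3.00. In hMGAT2 Cxcl1 measured 34.7, 61.6, 38.7 and 25.9 CPM on chow and 5.66, 3.36, 10 and 12.4 CPM on HFD. These 2 groups did not overlap, although the decrease was not called. Without library 4 the WT change of Cxcl1 was not called either (log2 0.64, adjusted p = 0.417), and its class was kept in 9 of 16 fits. Kupffer cell markers summed to 421.5 CPM in library 4, against 111.7 CPM in the lowest WT HFD library and 78.15 to 149.7 CPM in the other 3 groups, and recruited macrophage markers to 310.6 CPM against 65.47 CPM. The neutrophil marker sum was 66.33 CPM in library 4, with a group median of 2.616 CPM, and 2 of the 8 neutrophil markers were at 0 in each chow group. The part of these cells in the 3 genes was not tested. The count of 3 was 6 without WT HFD library 2 or 3 and 5 without library 1. Without library 4 it was still 3, and 2 other members were then called positive.

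Single members were called in several further lists. In matrix genes, where 21 of 27 rose in hMGAT2 and 16 in WT, Loxl2, a collagen cross-linker, was called (interaction 1.05), and 4 members were without library 4. The summed stellate and fibroblast markers were 462.1 to 531.5 CPM in hMGAT2 on HFD, 298.1 to 416.6 CPM in WT on HFD and 204 to 330 CPM on chow. All 8 of these markers were detected in each group. Of the marker genes Lrat, which esterifies retinol in stellate cells, was called (1.13, in 10 of 16 fits), and the part of stellate cells in Loxl2 was not tested. Bst2 (-0.88) and Psmb9 (-1.18) were the only calls among interferon and antigen presentation genes, and Psmb9 kept its call in 7 of 16 fits. Cdkn1a, a cell cycle inhibitor, had 2.07 and kept its call in 4, and it had 2.78 without library 4 (adjusted p = 0.000122). Cd4 was called negative (-3.31) and kept the call in all 16 fits, with -2.96 without library 4 (adjusted p = 0.00258). Summed T and NK cell markers were 3.484 to 18.19 CPM in WT on HFD, highest in library 4, with a median of 6.098 CPM. They were 1.936 to 3.276 CPM on chow and 1.424 to 1.837 CPM in hMGAT2 on HFD.

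Insulin and glucose genes had 2 of 21 called positive (Irs1 and Ppp1r3b) and 2 negative (Irs2 and Pck1). Irs2, the other main adaptor of the insulin receptor in liver, fell 2.13-fold in hMGAT2 (-1.24) and was at log2 0.15 in WT. Irs1 and Irs2 thus had interactions of opposite sign. Ppp1r3b, which brings a phosphatase to glycogen, had 0.89 and kept the call in 4 of 16 fits. In the stress response list Atf5 (1.10), Sesn2 (0.97) and Fgf21 were called positive and Xbp1 (-1.12) negative, with the same counts in all 16 fits. Of 16 immediate early genes Ier2 (-2.12), Btg2 (-2.62) and Junb (-2.52) were called negative, with 8 members falling in hMGAT2, and Junb kept the call in 7 of 16 fits. The interaction of Junb was -1.60 without WT HFD library 4 (adjusted p = 0.0323). Btg2 kept its class, opposite sign, in 1 of 16 fits.

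Clock genes had Npas2 called positive and Per3 and Bhlhe41 negative among 19. Npas2, a partner of the clock protein BMAL1 (ENSMUSG00000026077, chromosome 1, 39233293 to 39402317), measured 0.898, 2.08, 1.04 and 2.08 CPM in WT on chow and 0.195, 0.0417, 0.122 and 0.238 CPM on HFD. In hMGAT2 it had 0.969, 1.44, 1.5 and 1.03 CPM on chow and 1.91, 1.11, 3.23 and 0.448 CPM on HFD. The WT HFD libraries were the lowest, and the hMGAT2 groups overlapped (interaction 3.85 ± 0.77 SE, adjusted p = 0.00827). Per3, which rose 3.53-fold in WT and 1.70-fold in hMGAT2, had -1.06 and kept the call in 8 of 16 fits, and Bhlhe41 had -2.98. Collection times were not available for comparison, so time of day and group cannot be told apart.

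In sulfur amino acid and one-carbon metabolism Csad, of taurine synthesis, was called positive (2.49), and Cth, Ahcy and Nnmt negative (-0.88, -0.76 and -2.77). They kept the call in 5, 8, 9 and 12 of 16 fits, and the negative count of 3 was 0 without libraries 5, 8 or 10. Apolipoprotein genes had Pltp (1.59, in 7 of 16 fits) and Scarb1 (-0.91, in all 16). Scarb1, the HDL receptor, rose 1.35-fold in WT and fell 1.39-fold in hMGAT2, but both diet effects were called in only 7 of the 16 fits. Neither respiratory chain list had a call, with medians of 0.12 for 21 nuclear genes and -0.70 for 13 mitochondrial ones. The lowest adjusted p there were 0.353 for Atp5b and 0.28 for mt-Nd3.

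**Figure D5:**
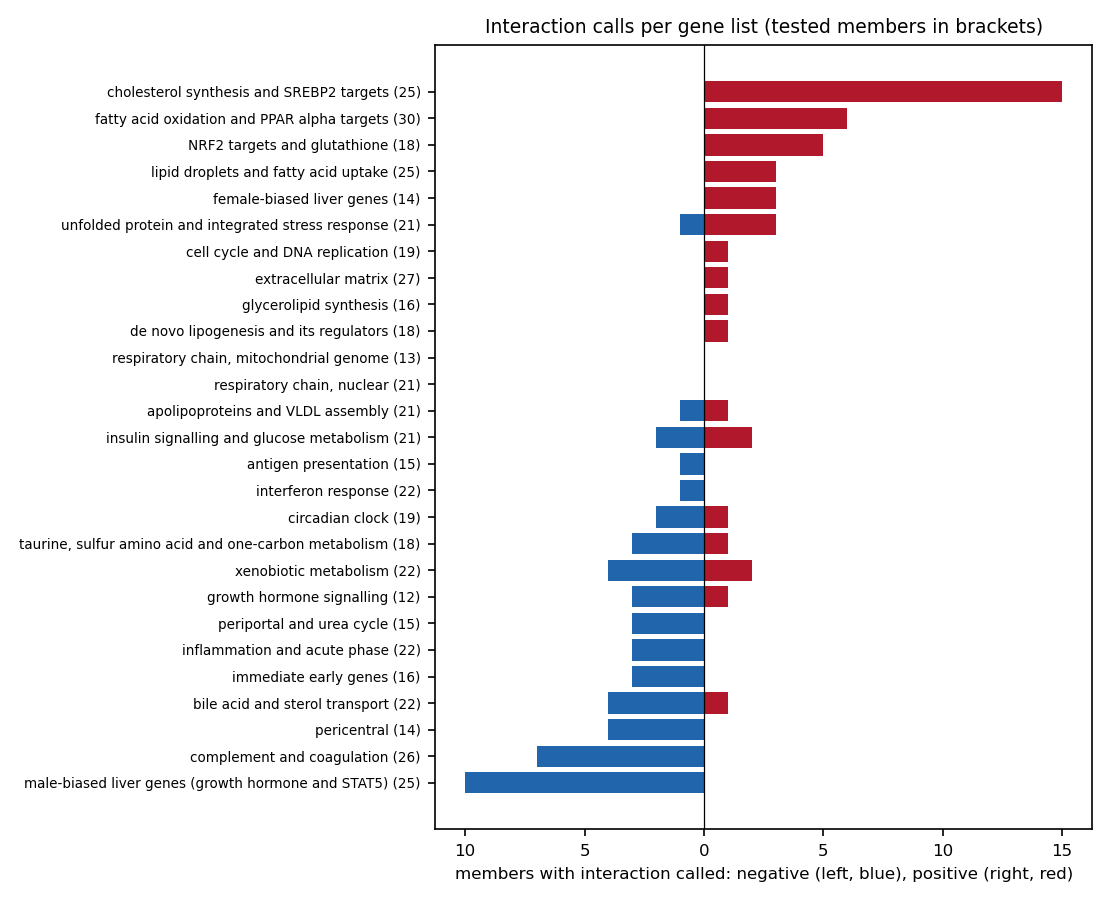
Number of members with the interaction called positive (red, right) or negative (blue, left) in each of 27 pathway lists, with the number of tested members in brackets. Cholesterol synthesis leads the positive side with 15 and male-biased genes the negative side with 10, and both respiratory chain lists have 0.

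Members just inside the threshold were Fbxo45, Tacc1 and Srebf2, at an adjusted p of 0.05 after rounding with interactions of 0.46, -0.69 and 0.78. Just outside were Gm5873, B4galt1 and Gm45086, at 0.05005, 0.05017 and 0.05018. Of the 844 genes, 56 averaged below 1 CPM and 7 had a group with 3 counts or fewer. On a linear scale, the difference between the 2 differences in mean CPM had the same sign as the interaction for all 844.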

How the data were processed

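Liver total RNA was depleted of ribosomal RNA and sequenced as stranded libraries, per the labels' protocols. Reads were aligned with STAR 2.7 to mm39, per the submitters' processing notes, and the deposited raw counts per gene name came from featureCounts 2.0.1 run without a strand setting, per the file headers. Overlapping genes on opposite strands and near-identical copies therefore cannot be fully told apart. The 64 records hold 4 per library, and each of 16 libraries was used once. The counts were fitted with edgeR 4.0.16 (quasi-likelihood test, TMM scaling, filterByExpr, 4 group means, two-sided, Benjamini-Hochberg over 17318 genes of 33954 with a count). An SE is the log2 change over the root of F. Of 40 gene lists, 28 are pathways and 12 cell markers. The genes, lists and classes were chosen with earlier results of these data known. Named genes are the 5 with the smallest p per class and direction with at least 1 CPM, the Mogat and Dgat genes, called list members, and the 2 smallest p in lists without a call. Alternatives were DESeq2 1.42.0, its size factors, limma 3.58.1 voom with library weights, other filters and thresholds, and leaving out each library. Named genes withheld for evaluation are counted with the rest and not reported here.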

Additional observations from a re-analysis of the deposited data

Results flagged for a closer look

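The effect of HFD differed between the genotypes by the interaction test for 844 genes. In addition, 480 sets of 4 libraries (120 called named genes in 4 groups) were examined for a library far from the other 3. Of these, 33 sets held one (6.88%). The cutoff flags about 1 in 20 sets of normally distributed values. CPM need not be so distributed and the sets share libraries, so 6.88% cannot be judged against that rate.

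WT HFD library 4 accounted for 10. It was high for Saa1 (7574 CPM, others 26.9 to 123), Socs3 (116, others 5.67 to 12), Cxcl1 (101, others 3.77 to 13.2), Junb (61.6, others 10.4 to 16), Pim1 (37.4), Slc43a1 (15.3) and Pcp4l1 (2.14 CPM). It was low for Cyp4a12b (12.5 CPM, others 250 to 288), Hmgcs1 (41.4, others 86 to 90.7) and Gstm4 (12.3 CPM, others 22.5 to 22.9). WT HFD library 3 was high for Gpcpd1 at 294 CPM.

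In hMGAT2 on chow, library 14 was high for Abcg5 (111 CPM), Abcg8 (213), Pltp (20.4) and Nnmt (77.7), and low for Slco1a1 (299) and Aldh1a1 (705 CPM). Library 16 was high for C6 (268 CPM) and Moxd1 (29.2), and library 13 was high for Cd36 (51.3 CPM).

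In WT on chow, library 6 was high for Cyp2c70 (213 CPM), Egfr (1223), Scara5 (3.05) and Moxd1 (4.72) and low for Acot4 (22.8 CPM). Library 8 was high for Raet1e (9.79 CPM) and Bst2 (42) and low for Pcdh18 (1.48 CPM). Library 5 was high for Bcl6 (96.2 CPM), and library 7 was low for Spon2 (4.04 CPM).

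In hMGAT2 on HFD, library 10 was high for Irs1 (49.4 CPM), library 12 for Pex11a (127) and library 9 for Moxd1, where its 0.0407 CPM is 1 count.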

How the results depend on the processing

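With edgeR and DESeq2 size factors, no filter, at least 1 CPM, or without mitochondrial, ribosomal RNA and hemoglobin genes, the interaction was called for 819, 791, 833 and 825 genes against 844, and DESeq2 called 1214. DESeq2 gave 46 genes of different size, 102 without a diet call and 106 with a genotype call on chow, against 26, 42 and 43. Voom with library weights called 1391 (754 positive, 637 negative), with 153 of opposite sign, 545 WT only, 571 hMGAT2 only and 59 of different size. It called the genotype for 1178 of these on HFD and 73 on chow, and 1116 had a diet call in 1 genotype. At adjusted p below 0.1 and 0.01 there were 1330 and 273 calls. With diet effects taken at unadjusted p below 0.05, 278 were of opposite sign, 49 of different size and 0 had none. With diet effects called at adjusted p below 0.05 and at least 1.5-fold, these counts were 52, 16 and 237. By sign alone 665 were opposite and 179 the same.

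Leaving out each library gave 529 to 1129 calls (284 to 600 positive, 245 to 529 negative). By class these were 58 to 130 of opposite sign, 192 to 360 WT only, 215 to 538 hMGAT2 only, 8 to 63 of different size and 19 to 53 without a diet call. The genotype was called on HFD for 456 to 935 of them and on chow for 17 to 99. Of genes with a diet call in 1 genotype, 437 to 897 had the interaction. The lowest came mostly without WT chow library 5, and the highest mostly without WT HFD library 4. The cause was not tested. None of the 122 called named genes changed the sign of its interaction in any setting run, and 90 kept the call whichever library was left out. In 5 other settings 110 kept it. Voom lost Pmvk, Lss, Cyp3a13, Cyp2b9 and Saa1, no filter lost 6, and DESeq2 size factors and the fit without hemoglobin, ribosomal RNA and mitochondrial genes lost 2 each. DESeq2 lost none and gave Saa1 no adjusted p. No paired analysis was possible because the groups share no library numbers. Depth limited genes of low count most, as the median SE of the interaction was 0.56 below 1 CPM, 0.32 from 1 to 10 CPM and 0.17 above, and the smallest called interactions were 1.30, 0.52 and 0.37 in size.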
